A study of Mus musculus with 12 samples.

Results

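The genes described here are Epcam and the members of the matriptase system that acts on the EpCAM protein: St14, Prss8, Spint1 and Spint2. They were chosen by name, with earlier results of these data known. All 5 were found among the 37583 genes counted in every library, under the identifiers ENSMUSG00000045394 (Epcam), ENSMUSG00000031995 (St14), ENSMUSG00000030800 (Prss8), ENSMUSG00000027315 (Spint1) and ENSMUSG00000074227 (Spint2). All 5 also passed the filter on low counts that left 16240 genes for testing. They were described with 49 other genes that act with the system.

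Poly-A RNA was sequenced from 12 samples of mouse cells of strain 129SV/Jae/C57BL6J, in 6 groups of 2. MEF were embryonic fibroblasts, the starting cells, grown in MEF medium, and iPSC were induced pluripotent stem cells in ES medium. Between them lay 4 populations of reprogramming cells in ES medium with dox and AA, agents the labels do not spell out. On day 3 the cells were SSEA1+ CD73- Sca1+ (d3_Ineff) or SSEA1+ CD73+ Sca1- (d3_Eff), and on day 6 they were SSEA1+ EpCAM- Sca1+ (d6_Ineff) or SSEA1+ EpCAM+ Sca1- (d6_Eff). The group names follow the labels, which add no reprogramming factors, transgene, age or number of animals. A prefix "3/4" on the MEF and iPSC titles is not explained. Cells were stained and sorted by flow cytometry after trypsin, so the day 6 populations were parted on the protein product of Epcam itself. The labels do not say whether replicates came from separate cultures or animals, and p-values then measure only the spread between these samples.

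Gene counts per library ranged from 9284060 to 22763548. MEF replicate 2 was the shallowest library and had 47.2% of its reads outside genes, and d6_Eff replicate 2 had 24.1%, against 5.10% to 11.7% in the other 10 libraries. Levels below are gene counts per 1000000 after TMM scaling (CPM), for which 3 counts in a group equalled 0.0667 to 0.113 CPM. The 12 fibroblast markers summed to 18418 and 49411 CPM in MEF and to 118 CPM in both iPSC libraries, where Lum and Dcn were at 0. The 12 pluripotency markers summed to 1.39 and 2.37 CPM in MEF, 268 and 269.8 CPM in d6_Eff and 8266 and 8686 CPM in iPSC, and Dppa4 and Tcl1 were at 0 in both d6_Eff libraries. In bulk samples a lower share of cells that express a gene and less RNA of it per cell cannot be told apart.

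EpCAM is a membrane glycoprotein of simple epithelia and of pluripotent stem cells, where it takes part in cell contacts and binds claudin-7. Matriptase, the product of St14, is a serine protease anchored in the membrane that can cut EpCAM outside the cell. Prostasin, the product of Prss8, is a serine protease held by a lipid anchor, and prostasin and matriptase can act on each other. The Kunitz-type inhibitors HAI-1 (Spint1) and HAI-2 (Spint2) block both proteases. Epithelia usually make the proteases and the inhibitors together, and loss of an inhibitor leaves the protease unchecked.

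Promoter sequence was at hand for 3 of the 5 genes, as the 250 bases before the start of transcription in RefSeq (GRCm38.p6). Epcam, Spint1 and Spint2 rose over the same series of populations to different degrees, and a link of the levels to these sequences was not tested. The windows lie at chr17:87635729-87635978 on the plus strand (Epcam), chr2:119237110-119237359 on the plus strand (Spint1) and chr7:29281978-29282227 on the minus strand (Spint2). Each is given 5′ to 3′ toward the RefSeq start. Bases after that start matched a GENCODE transcript of the gene for Epcam and Spint1 but not for Spint2. The orientation, start and distances of the Spint2 window therefore rest on RefSeq alone. Capitals mark 2 motifs on either strand: the E-box CACCTG (or its complement CAGGTG), letters bound by Snail and Zeb repressors, and the GC box GGGCGG (or CCGCCC), letters bound by Sp1. The motifs were chosen after the sequences had been seen.
Epcam: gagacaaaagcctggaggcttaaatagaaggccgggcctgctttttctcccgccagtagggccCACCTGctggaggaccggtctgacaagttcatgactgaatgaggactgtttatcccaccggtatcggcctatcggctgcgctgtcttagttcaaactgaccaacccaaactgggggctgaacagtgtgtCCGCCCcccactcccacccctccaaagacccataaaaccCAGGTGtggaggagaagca
Spint1: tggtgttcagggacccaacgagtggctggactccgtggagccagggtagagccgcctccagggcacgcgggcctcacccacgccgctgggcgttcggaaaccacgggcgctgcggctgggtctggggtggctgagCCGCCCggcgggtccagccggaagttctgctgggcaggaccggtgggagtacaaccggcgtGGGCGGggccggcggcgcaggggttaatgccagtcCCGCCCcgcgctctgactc
Spint2: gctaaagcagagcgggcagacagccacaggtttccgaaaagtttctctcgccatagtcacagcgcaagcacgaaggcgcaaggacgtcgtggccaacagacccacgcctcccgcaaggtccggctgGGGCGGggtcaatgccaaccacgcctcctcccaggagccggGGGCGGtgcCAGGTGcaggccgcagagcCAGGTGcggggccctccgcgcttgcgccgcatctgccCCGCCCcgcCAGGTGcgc
The Epcam window held 2 E-boxes, 187 and 19 bases before the start, and 1 GC box. The Spint1 window held no E-box and 3 GC boxes. The Spint2 window held 3 E-boxes, 74, 55 and 9 bases before the start, and 3 GC boxes. The E-box occurred in 17.2% of all 32851 windows of this length in the table, and the GC box in 32.7%. The Grainyhead palindrome AACCGGTT was in none of the 3 windows and in 0.116% of all windows. GC content was 56.4% for Epcam, 72.8% for Spint1 and 69.6% for Spint2, against a median of 52.4% over all windows.

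Epcam was close to absent in fibroblasts, low on day 3, and peaked in the day 6 population sorted for EpCAM, above iPSC. Its 2 MEF libraries stood at 0.568 CPM (11 counts) and 0 CPM. The d3_Ineff libraries were at 5.33 and 5.07 CPM, and the d3_Eff libraries at 11.0 and 12.2 CPM. On day 6 the d6_Ineff libraries, sorted for the absence of EpCAM protein, were at 27.7 and 27.8 CPM. The d6_Eff libraries reached 947 and 994 CPM, and the iPSC libraries 348 and 391 CPM. No library of any group overlapped one of another group. In the order of means, from 0.284 ± 0.401 CPM in MEF (SD, n = 2) to 970.3 ± 33.1 CPM in d6_Eff (SD, n = 2), 1 pair of neighbours did not pass the test: d3_Ineff and d3_Eff.

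St14, which encodes matriptase, followed a similar order. Its counts were 16 and 0 in MEF, which is 0.826 and 0 CPM. It then stood at 20.2 and 12.8 CPM in d3_Ineff and at 22.7 and 32.5 CPM in d3_Eff. The d6_Ineff libraries were at 82.0 and 78.4 CPM, the d6_Eff libraries at 211 and 267 CPM and the iPSC libraries at 100.8 and 105 CPM. The libraries of the 6 groups did not overlap. The neighbours that did not pass the test were d3_Ineff and d3_Eff (log2 difference 0.74 ± 0.37 SE, adjusted p = 0.668) and d6_Ineff and iPSC (0.36 ± 0.36 SE, adjusted p = 0.449).

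Prss8, which encodes prostasin, stayed under 1 CPM in MEF, on day 3 and in d6_Ineff and was high in d6_Eff and iPSC. No read was counted in either MEF library. The d3_Ineff libraries had 4 and 9 counts (0.175 and 0.407 CPM), the d3_Eff libraries 0 and 5 counts (0 and 0.260 CPM) and the d6_Ineff libraries 10 and 22 counts (0.579 and 0.877 CPM). The d6_Eff libraries had 399 and 371 counts (17.8 and 21.8 CPM), and the iPSC libraries 412 and 300 counts (17.7 and 19.8 CPM). The d6_Eff and iPSC libraries overlapped each other and lay above all others. Reads were counted without regard to strand, and 122 of the 1852 exon bases of Prss8 are shared with Kat8, a histone acetyltransferase gene on the opposite strand. Kat8 had means of 15.2 CPM in MEF, 14.4 CPM in d6_Ineff, 21.3 CPM in d6_Eff and 30.3 CPM in iPSC, and did not pass the test between the day 6 populations (log2 difference 0.56 ± 0.28 SE, adjusted p = 0.217). In iPSC, Kat8 was called higher than in MEF (log2 0.98 ± 0.28 SE, adjusted p = 0.01335) and than in d6_Ineff (log2 1.07 ± 0.28 SE, adjusted p = 0.00983). Prss8 was at 0 in MEF with Kat8 at 15.2 CPM. The part of Kat8 reads in the Prss8 counts was not tested.

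Spint1, which encodes HAI-1, was close to absent in MEF, low on day 3 and high in both day 6 populations. It had 12 counts and 1 count in MEF (0.619 and 0.140 CPM). It was at 8.48 and 8.55 CPM in d3_Ineff and at 11.7 and 7.69 CPM in d3_Eff, where the ranges overlapped. The d6_Ineff libraries reached 95.3 and 103 CPM and the d6_Eff libraries 179.8 and 213 CPM, while the iPSC libraries were at 69.7 and 78.5 CPM. For Spint1 the d6_Ineff mean of 99.3 ± 5.71 CPM (SD, n = 2) stood above the iPSC mean of 74.1 ± 6.24 CPM (SD, n = 2), without overlap. That difference did not pass the test over all libraries (log2 iPSC against d6_Ineff -0.42 ± 0.26 SE, adjusted p = 0.208).

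Spint2, which encodes HAI-2, was the member already expressed in fibroblasts, at 12.5 and 16.7 CPM. It was at 32.3 and 40.9 CPM in d3_Ineff and at 55.65 and 69.6 CPM in d3_Eff. It reached 141 and 126 CPM in d6_Ineff, 365 and 438 CPM in d6_Eff and 286 and 321 CPM in iPSC. No groups overlapped, and the neighbours that did not pass the test were the 2 day 3 populations (0.77 ± 0.21 SE, adjusted p = 0.189) and iPSC and d6_Eff (0.40 ± 0.21 SE, adjusted p = 0.174).

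**Figure D1:**
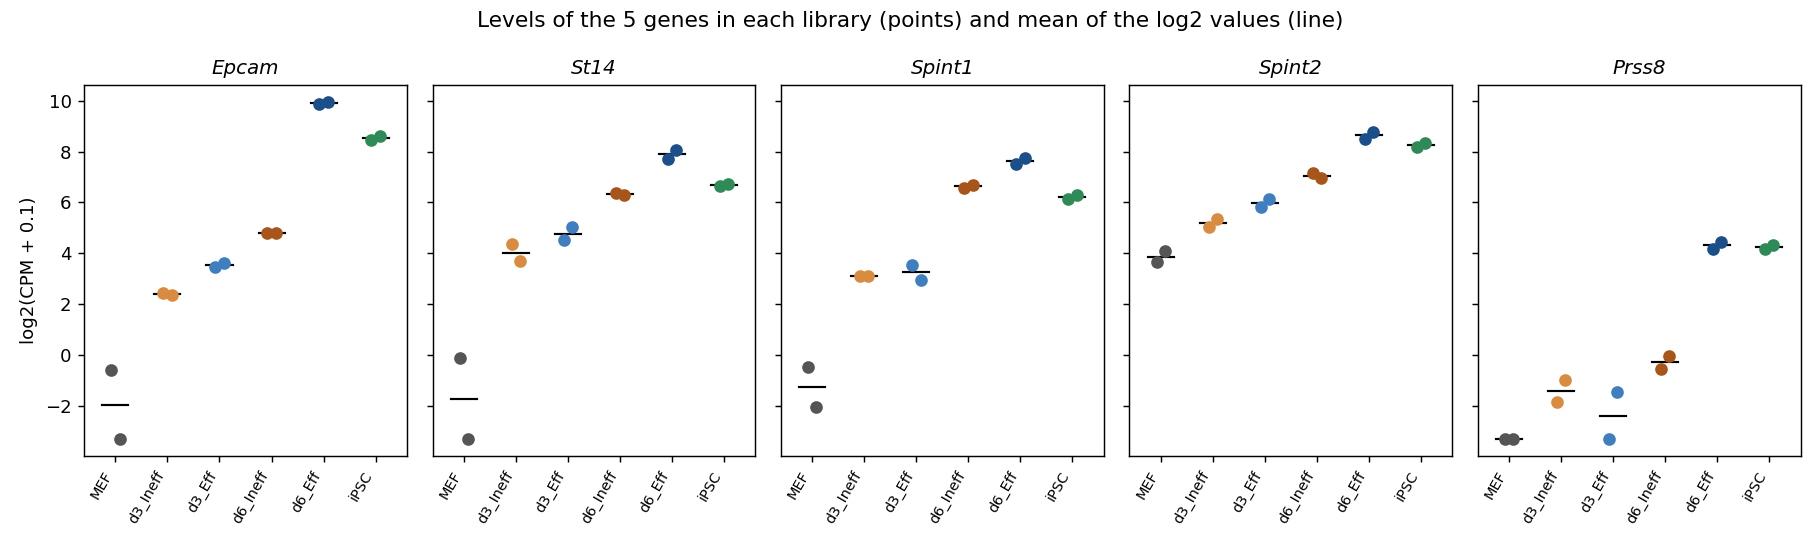
Each point is 1 library and each line the mean of a group's 2 log2 values, on a scale of log2(CPM + 0.1), for Epcam, St14, Spint1, Spint2 and Prss8 in the 6 groups. All 5 genes have their highest group mean in d6_Eff, Spint2 starts from 12.5 and 16.7 CPM in MEF, and Prss8 stays under 1 CPM in every library outside d6_Eff and iPSC.

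Against MEF, with edgeR's quasi-likelihood test and Benjamini-Hochberg adjustment over all genes, 4 of the 5 genes were higher in d3_Ineff, where 15.0% of all tested genes were called higher, and 4 of 5 in d3_Eff, where 18.0% were. On day 6 all 5 were higher, both in d6_Ineff (15.6% of all genes) and in the d6_Eff libraries (20.9%), as they were in iPSC (26.0%). These 5 comparisons share the 2 MEF libraries. In d3_Ineff the log2 fold changes were 3.70 ± 0.43 (SE) for Epcam, 4.86 ± 0.52 (SE) for St14, 4.16 ± 0.39 (SE) for Spint1 and 1.34 ± 0.22 (SE) for Spint2, with adjusted p from 1.97e-05 to 9.08e-04. Fitted alone, the d3_Ineff and MEF libraries left 2 of these calls, and Epcam (adjusted p = 0.0553) and Spint2 (adjusted p = 0.0663) missed the threshold. Prss8 was not called on day 3 (adjusted p = 0.0597 in d3_Ineff and 0.175 in d3_Eff). The d3_Ineff difference was called by DESeq2 (adjusted p = 0.0263), with no filter (adjusted p = 0.00572) and without d3_Eff replicate 1 or 2 (adjusted p = 0.0207 and 0.0208), and the d3_Eff difference without d3_Eff replicate 1 (adjusted p = 0.0415). It was called in d6_Ineff (adjusted p = 0.0116), at least 6.44-fold above 3 counts over the MEF group, but not when only these 4 libraries were fitted (adjusted p = 0.0820). Against the same floor it was at least 175-fold higher in d6_Eff and at least 166-fold higher in iPSC. Spint2, with counts in both MEF libraries, was 27.7-fold higher in d6_Eff (log2 4.79 ± 0.25 SE, adjusted p = 1.76e-07) and 21.0-fold higher in iPSC (log2 4.39 ± 0.24 SE, adjusted p = 1.47e-07). For Epcam, St14 and Spint1 the size of the fold over MEF rested on MEF replicate 1, which held all 11, all 16 and 12 of the 13 MEF counts. Without it the fitted log2 values in d3_Ineff were 9.67 for Epcam, 11.3 for St14 and 5.88 for Spint1, and without MEF replicate 2 they were 3.11, 4.25 and 3.70. A value fitted against a library with no counts depends on the prior count and is no measure of size. In iPSC the fitted log2 value of Epcam was 9.84, with 15.8 without MEF replicate 1 and 9.27 without MEF replicate 2. The calls of these 3 genes over MEF held in all 12 fits that left out 1 library. The summed level of the 8 endothelial markers moved with these comparisons, from 2.93 and 4.54 CPM in MEF to between 116 and 162 CPM in the day 3 libraries. Tek held most of this, with means of 1.91 CPM in MEF, 151 CPM in d3_Ineff and 125 CPM in d3_Eff. The next highest mean on day 3 was 3.46 CPM, for Cdh5 in d3_Ineff, where Pecam1, Emcn and Cldn5 were at 0. The part of these markers in the results was not tested.

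Within day 3, where the gates used CD73 and Sca1 and not EpCAM, none of the 5 genes was called between d3_Eff and d3_Ineff. Of all tested genes, 0.160% were called higher and 0.240% lower in this comparison. These shares are for the edgeR adjusted p alone, and no share is given for the other measures below. Epcam was 2.22-fold higher in d3_Eff (log2 1.15 ± 0.29 SE, adjusted p = 0.145), with no overlap between the groups. Spint2 was 1.71-fold higher (log2 0.77 ± 0.21 SE, adjusted p = 0.189), also without overlap. Both had an unadjusted p under 0.05, 0.00209 for Epcam and 0.00364 for Spint2. DESeq2 called both (adjusted p = 7.91e-06 and 0.0431), and limma-voom called neither. The edgeR test also called both when either MEF library was left out, with adjusted p of 1.59e-04 and 3.23e-04 for Epcam and of 0.00771 and 0.0105 for Spint2. Spint1 (log2 0.19 ± 0.27 SE) and Prss8 (log2 -1.22 ± 0.94 SE) had ranges that overlapped.

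Between the day 6 populations all 5 genes were higher in d6_Eff, where 5.37% of all tested genes were called higher and 9.25% lower. Epcam was 34.9-fold higher (log2 5.13 ± 0.32 SE, adjusted p = 1.90e-05), in populations that had been sorted on its protein. The other 4 gene products were not sorted on. Prss8 was 26.5-fold higher (log2 4.73 ± 0.64 SE, adjusted p = 0.00108). Spint2 was 3.01-fold higher (log2 1.59 ± 0.21 SE, adjusted p = 7.55e-04), St14 2.98-fold (log2 1.58 ± 0.37 SE, adjusted p = 0.0151) and Spint1 1.98-fold (log2 0.98 ± 0.26 SE, adjusted p = 0.0263). The median log2 fold change of the 5 genes was 1.59, against 0 over all tested genes. The calls of St14 and Spint1 were both lost without d6_Ineff replicate 1, d6_Ineff replicate 2 or d6_Eff replicate 2, with adjusted p from 0.112 to 0.224. Spint1 was also lost without either d3_Ineff library or d6_Eff replicate 1. The calls of Epcam, Spint2 and Prss8 held in all 12 fits that left out 1 library. The fibroblast markers moved with this contrast, from sums of 5173 and 5484 CPM in d6_Ineff to 498 and 755 CPM in d6_Eff. The pluripotency markers summed to 53.8 and 60.2 CPM in d6_Ineff and to 268 and 269.8 CPM in d6_Eff. Among them Esrrb alone had a lower mean in d6_Eff, at 13.4 and 13.5 CPM in d6_Ineff and 2.49 and 3.64 CPM in d6_Eff. The endothelial markers summed to 162 and 166 CPM against 88.0 and 88.9 CPM, mostly from Tek (means 128 and 71.1 CPM). Cldn5 (3.84 and 5.87 CPM) and Esam (4.78 and 7.07 CPM) had higher means in d6_Eff, and all other endothelial markers lower ones. The part of these markers in the result was not tested. The 10 simple epithelium markers, which include Cldn3, Cldn4, Grhl2 and the E-cadherin gene Cdh1, summed to 119 and 138 CPM in d6_Ineff and to 1079 and 1188 CPM in d6_Eff. The 10 markers of epidermal keratinocytes, a cell type in which matriptase and prostasin are well known, summed to 7.26 and 8.63 CPM in d6_Ineff. In d6_Eff they summed to 8.68 and 8.87 CPM. Most came from Krt10 (means 6.66 and 5.96 CPM), and Krt5, Krt15, Krt1, Ivl and Dsg3 were at 0 in both populations. Krtdap (0.676 and 2.02 CPM), Krt14 (0.0399 and 0.302 CPM) and Lor (0.0399 and 0.279 CPM) had higher means in d6_Eff. Krt10 and Trp63 (0.524 and 0.222 CPM) had lower ones.

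The contrast between the sorted populations was larger on day 6 than on day 3 for 2 of the 5 genes, as tested by the difference of the log2 fold changes in the same edgeR fit. This difference was called higher for 0.296% of all genes. It was 3.98 ± 0.40 (SE, adjusted p = 0.00231) for Epcam and 5.95 ± 1.12 (SE, adjusted p = 0.0354) for Prss8. For Prss8 the call held in 3 of 12 fits without 1 library, and the adjusted p was otherwise between 0.0552 and 0.292. Its day 3 libraries held between 0 and 9 counts, and the value was 4.87 without d3_Eff replicate 1, 5.21 without d3_Ineff replicate 2 and 10.3 without d3_Eff replicate 2. The last of these fits left d3_Eff with 0 counts, so its value is no measure of size. For St14 (0.84 ± 0.51 SE, adjusted p = 0.570), Spint1 (0.80 ± 0.37 SE, adjusted p = 0.421) and Spint2 (0.82 ± 0.30 SE, adjusted p = 0.259) the difference did not pass. For Spint2 it passed without MEF replicate 1 or 2 (adjusted p = 0.0277 and 0.0251). The gates of the 2 days shared SSEA1 and Sca1 but differed in CD73 on day 3 and EpCAM on day 6, so day and gate cannot be told apart here.

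From day 3 to day 6, Epcam, St14, Spint1 and Spint2 rose in the Ineff populations, where 3.19% of all genes were called higher, and all 5 genes rose in the Eff populations, where 4.24% were. In the Ineff populations Spint1 had the largest change of the 5, 11.7-fold (log2 3.54 ± 0.29 SE, adjusted p = 1.51e-04). Epcam rose 5.33-fold, St14 4.84-fold and Spint2 3.64-fold. Without d3_Ineff replicate 2 the rise of St14 was not called (adjusted p = 0.113). Prss8 was not called in the Ineff populations (log2 1.33 ± 0.73 SE, adjusted p = 0.373). In the Eff populations Epcam rose 83.9-fold (log2 6.39 ± 0.34 SE, adjusted p = 5.99e-06) and Spint1 20.3-fold (log2 4.34 ± 0.29 SE, adjusted p = 1.66e-05). Only the day 6 cells had been sorted on EpCAM protein, so day and gate cannot be told apart in these changes, least of all for Epcam. Epcam, St14, Spint1 and Spint2 were also higher in d6_Ineff than in d3_Eff, by 1.26 ± 0.28, 1.54 ± 0.37, 3.36 ± 0.28 and 1.09 ± 0.21 on the log2 scale (SE, adjusted p from 2.04e-04 to 0.0264), where 5.93% of all genes were called higher. Prss8 was not called there (log2 2.55 ± 0.85 SE, adjusted p = 0.0948). Spint1 was higher in iPSC than in d3_Eff (log2 2.93 ± 0.28 SE, adjusted p = 1.14e-05), where 19.0% of all genes were.

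In iPSC, 3 of the 5 genes were lower than in d6_Eff, as were 15.9% of all tested genes. For Epcam, this comparison and the one with d6_Ineff set iPSC against cells that had been sorted on its own protein. Epcam was 2.63-fold lower (log2 -1.39 ± 0.27 SE, adjusted p = 0.00263), Spint1 2.65-fold lower (log2 -1.41 ± 0.26 SE, adjusted p = 0.00187) and St14 2.32-fold lower (log2 -1.22 ± 0.36 SE, adjusted p = 0.0267). The call of St14 was lost when any of these 4 libraries was left out (adjusted p from 0.0614 to 0.144). Spint2 (log2 -0.40 ± 0.21 SE, adjusted p = 0.174) and Prss8 (log2 -0.08 ± 0.52 SE, adjusted p = 0.941) were not called. Spint2 was called lower in a fit of these 4 libraries alone (adjusted p = 0.0145) and without MEF replicate 1 (adjusted p = 0.0443). Against d6_Ineff, 3 of the 5 genes were higher in iPSC, where 20.6% of all genes were: Epcam by 3.73 ± 0.30 (SE, adjusted p = 2.96e-06), Prss8 by 4.65 ± 0.64 (SE, adjusted p = 2.27e-04) and Spint2 by 1.19 ± 0.21 (SE, adjusted p = 9.04e-04) on the log2 scale. St14 and Spint1 were not called there over all libraries. In a fit of the iPSC and d6_Ineff libraries alone, St14 was called higher (log2 0.35, adjusted p = 0.0178) and Spint1 lower (log2 -0.44, adjusted p = 0.0102), as Spint1 also was without MEF replicate 1 (adjusted p = 0.0434).

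**Figure D2:**
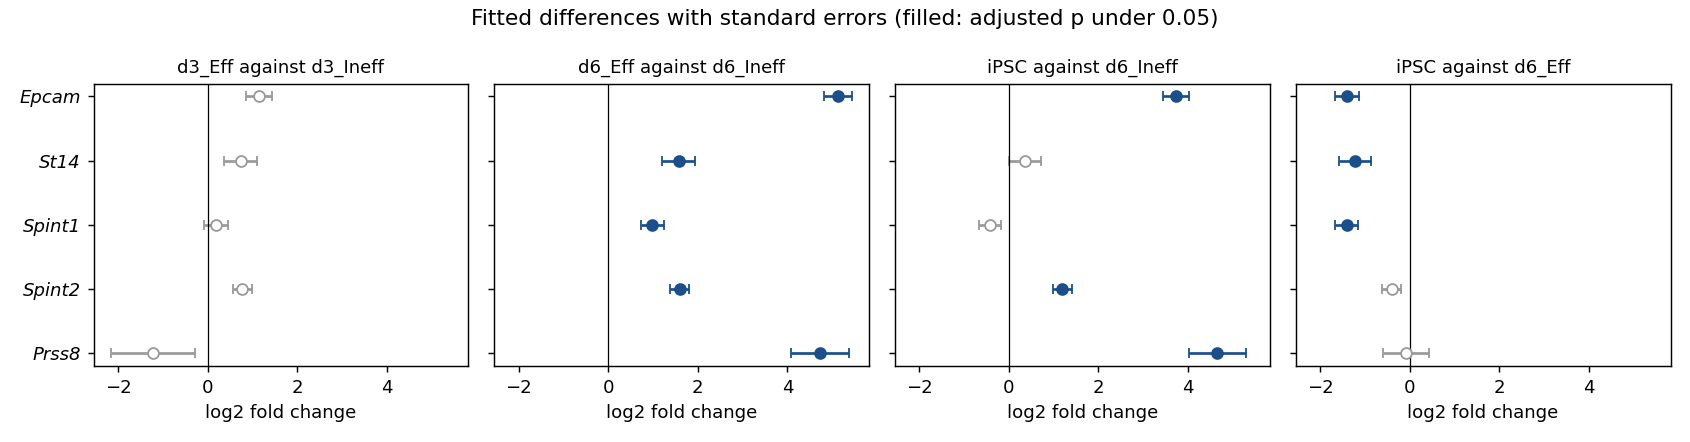
Points are fitted log2 fold changes with bars of 1 standard error for the 5 genes in 4 comparisons, and filled points passed an adjusted p of 0.05. All 5 points are filled for d6_Eff against d6_Ineff and none for d3_Eff against d3_Ineff, while against d6_Eff the iPSC values are filled on the lower side for Epcam, St14 and Spint1.

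The balance between proteases and inhibitors was compared as ratios of counts per kilobase of exon within each library, so that library size drops out. They rest on exon lengths from the later annotation, 2767 bases for Spint1 and 4556 for Spint2, which were not checked against other gene models. These ratios are descriptions of transcript levels, with no test. Spint1 over Spint2 was 0.0816 and 0.0137 in MEF, between 0.182 and 0.432 in the 4 day 3 libraries, 1.11 and 1.35 in the d6_Ineff libraries, 0.811 and 0.801 in the d6_Eff libraries, and 0.401 and 0.402 in iPSC. The ratio was thus higher in both d6_Ineff libraries than in any library of another group, an order that does not depend on the lengths. That it lay above 1 does: in counts, Spint1 was below Spint2 in both d6_Ineff libraries (1645 against 2430 and 2592 against 3152). Spint1 over St14 was 3.21 and 3.64 for d6_Ineff, 2.35 and 2.21 for d6_Eff, 1.91 and 2.07 for iPSC, and ranged from 0.653 to 1.84 on day 3. Spint2 over St14 ranged from 2.68 to 5.34 on day 3, from 2.69 to 2.90 on day 6 and was 4.76 and 5.13 in iPSC. The sole MEF library with St14 counts gave 25.4, on 16 counts of St14. Prss8 over St14 was 0.0291 and 0.0461 for d6_Ineff, 0.347 and 0.337 for d6_Eff, and 0.724 and 0.777 for iPSC. Per kilobase, Epcam had the highest level of the 5 genes in d6_Eff, 442 ± 15.1 CPM per kilobase (SD, n = 2), followed by Spint2 at 88.1 ± 11.3, Spint1 at 71.0 ± 8.52, St14 at 31.3 ± 5.13 and Prss8 at 10.7 ± 1.53 on the same scale.

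**Figure D3:**
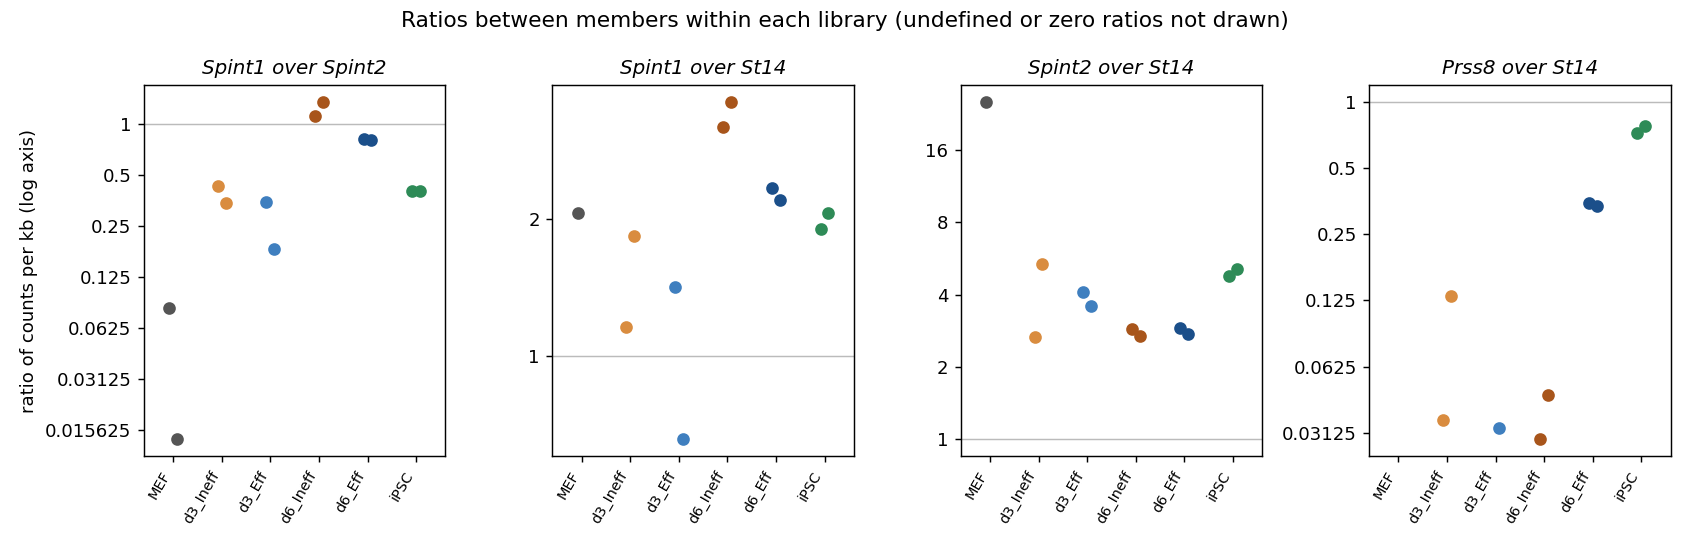
Each point is the ratio of 2 genes' counts per kilobase of exon in 1 library, on a log axis, with a line at 1 where both genes are equal. Spint1 over Spint2 is above 1 in the d6_Ineff libraries (1.11 and 1.35) and under 1 in all others, and Prss8 over St14 is highest in iPSC (0.724 and 0.777).

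Of 49 other genes of the system found in the files, 37 passed the filter on low counts. In iPSC against MEF, 10 of the 37 were higher and 18 lower, where 26.0% of all genes were higher and 26.7% lower. Between the day 6 populations 5 were higher and 9 lower in d6_Eff, where 5.37% of all genes were higher and 9.25% lower, with a median log2 fold change of -0.52, against 0 over all tested genes. Between the day 3 populations edgeR called 0 of the 37. In that comparison 8 had an unadjusted p under 0.05, DESeq2 called 4 and limma-voom 0. Shares of all genes by unadjusted p, DESeq2 or limma-voom are not given here, so these counts have no background beside them. The counts by role that follow are from edgeR's adjusted p and stand beside its shares of all genes.

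The membrane partners of EpCAM numbered 6, and 3 of them rose in d6_Eff against d6_Ineff while 1 fell. Cldn7, which encodes the claudin that binds EpCAM, stood at 0.985 and 0.478 CPM in d6_Ineff, 167.5 and 175 CPM in d6_Eff and 49.4 and 53.7 CPM in iPSC. Its log2 fold change between the day 6 populations was 7.91 ± 0.48 (SE, adjusted p = 1.90e-05). On day 3 it had 0 and 3 counts in d3_Ineff and 10 and 16 in d3_Eff, a count ratio of 9.21 (95% exact Poisson interval 2.82 to 47.6), and was not called (adjusted p = 0.149). Without MEF replicate 1 or 2 it was (adjusted p = 0.0213 and 0.0258). Cldn4, another claudin gene, stood at 19.1 and 21.7 CPM in d6_Ineff and 221 and 219 CPM in d6_Eff (log2 3.43 ± 0.32 SE, adjusted p = 1.29e-04). In iPSC it was at 168 and 203 CPM. On day 3 Cldn4 stood at 2.32 and 2.17 CPM in d3_Ineff and 7.41 and 7.59 CPM in d3_Eff (log2 1.74 ± 0.34 SE, adjusted p = 0.0634). This difference was called without MEF replicate 1 or 2 (adjusted p = 3.84e-05 and 6.85e-05), and by DESeq2 (adjusted p = 4.04e-08).

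The proteases that cut membrane proteins at or in the membrane numbered 9. Between the day 6 populations 2 were called lower in d6_Eff and 7 were not called, where 5.37% of all genes were called higher and 9.25% lower. In iPSC against MEF none was called higher, beside 26.0% of all genes. ADAM and BACE enzymes shed the outer part of EpCAM, and the gamma-secretase subunits then cut within the membrane. Adam10 fell from 91.5 and 109 CPM in d6_Ineff to 64.5 and 57.1 CPM in d6_Eff (log2 -0.72 ± 0.21 SE, adjusted p = 0.0430), and was at 32.4 and 28.1 CPM in iPSC. Its day 6 call held in 4 of 12 fits without 1 library, and the adjusted p was otherwise between 0.0521 and 0.236. Bace1 fell from 43.1 and 48.4 CPM to 17.9 and 15.4 CPM (log2 -1.46 ± 0.33 SE, adjusted p = 0.0132), with 975 exon bases shared with Rnf214 on the opposite strand. Without d6_Ineff replicate 2 or d6_Eff replicate 2, Bace1 was not called (adjusted p = 0.0609 and 0.0953). In iPSC against MEF, 8 of the 9 were lower, beside 26.7% of all genes, among them the gamma-secretase subunit gene Aph1a (log2 -1.66 ± 0.22 SE, adjusted p = 9.42e-05). Its exons share 445 bases with Car14 on the opposite strand. Of the 3 genes whose products meet the intracellular domain of EpCAM, Fhl2, a LIM-domain cofactor, fell from 152 and 160.5 CPM in MEF to 1.46 and 0.263 CPM in iPSC and from 17.0 and 12.8 CPM in d6_Ineff to 3.74 and 1.70 CPM in d6_Eff (log2 -2.43 ± 0.48 SE, adjusted p = 0.00668, and 0.0713 without d6_Eff replicate 2). Without d6_Eff replicate 1 the log2 value was -3.22. Lef1, a Wnt pathway transcription factor, was called higher in iPSC than in MEF (log2 5.08 ± 0.59 SE, adjusted p = 3.10e-05), at 35.1 and 36.2 CPM against 1.60 and 0.140 CPM. Its log2 value was 7.94 without MEF replicate 1 and 4.42 without MEF replicate 2. Between the day 6 populations, at 3.07 and 2.35 CPM in d6_Ineff and 1.56 and 0.939 CPM in d6_Eff, it was not called (adjusted p = 0.212), but was without MEF replicate 1 or 2 (adjusted p = 0.0264 and 0.0244). Part of its exons are shared with an antisense gene.

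Among 10 other membrane-anchored serine proteases, 5 passed the filter, 1 rose and 1 fell in d6_Eff against d6_Ineff. Hpn, which encodes hepsin, an HAI target like matriptase, had 0 and 4 counts in d6_Ineff and 153 and 198 in d6_Eff (6.81 and 11.6 CPM). Its log2 fold change was 6.56 ± 0.86 (SE, adjusted p = 0.00139), with 5.71 without d6_Ineff replicate 1 and 10.4 without d6_Ineff replicate 2. In iPSC it was at 11.3 and 14.1 CPM. Tmprss5, a serine protease gene of the same class, had no counts in MEF, 24.0 and 24.6 CPM in d3_Ineff, 29.5 and 32.6 CPM in d3_Eff and 77.7 and 80.3 CPM in d6_Ineff. It fell to 19.2 and 17.0 CPM in d6_Eff (log2 -2.12 ± 0.31 SE, adjusted p = 0.00155) and was at 1.59 and 0.593 CPM in iPSC. Tmprss5 in iPSC was at least 9.66-fold above the floor of 3 counts in MEF.

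Of the 5 other protease inhibitors tested, none was called between the day 6 populations and 3 were lower in iPSC than in MEF. Serpine2, which encodes protease nexin-1, was lower in iPSC than in MEF (log2 -2.84 ± 0.22 SE, adjusted p = 1.33e-06). Serpinb6a, another serpin gene, was at 356 and 705 CPM in MEF and 81.8 and 85.4 CPM in iPSC (log2 -2.67 ± 0.31 SE, adjusted p = 3.05e-05), with 762 exon bases shared with Nqo2 and 241 with Ripk1 on the opposite strand. Without MEF replicate 1 or 2 it was also called lower in d6_Eff than in d6_Ineff (adjusted p = 0.0236 and 0.0178) and in d3_Eff than in d3_Ineff (adjusted p = 0.00417 and 0.00316). Among the 9 tested substrates and receptors, 1 rose and 4 fell in d6_Eff. Cdcp1, which encodes a transmembrane protein cut by matriptase, had no counts in MEF, 1.04 and 2.07 CPM in d6_Ineff, 20.5 and 27.3 CPM in d6_Eff (log2 3.92 ± 0.62 SE, adjusted p = 0.00251) and 3.44 and 5.01 CPM in iPSC. Plau, which encodes urokinase, whose precursor matriptase can activate, fell from 5.85 and 3.47 CPM to 1.02 and 0.176 CPM (log2 -2.85 ± 0.54 SE, adjusted p = 0.00546). Without d6_Eff replicate 1 the log2 value was -4.75, and without d6_Eff replicate 2 it was -2.21. Met, the receptor gene for the matriptase-activated growth factor HGF, was highest on day 3, at 103 and 104 CPM in d3_Ineff and 72.9 and 51.1 CPM in d3_Eff, and stood at 3.44 and 3.89 CPM in iPSC. It was lower there than in MEF (log2 -3.09 ± 0.28 SE, adjusted p = 4.31e-06).

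**Figure D4:**
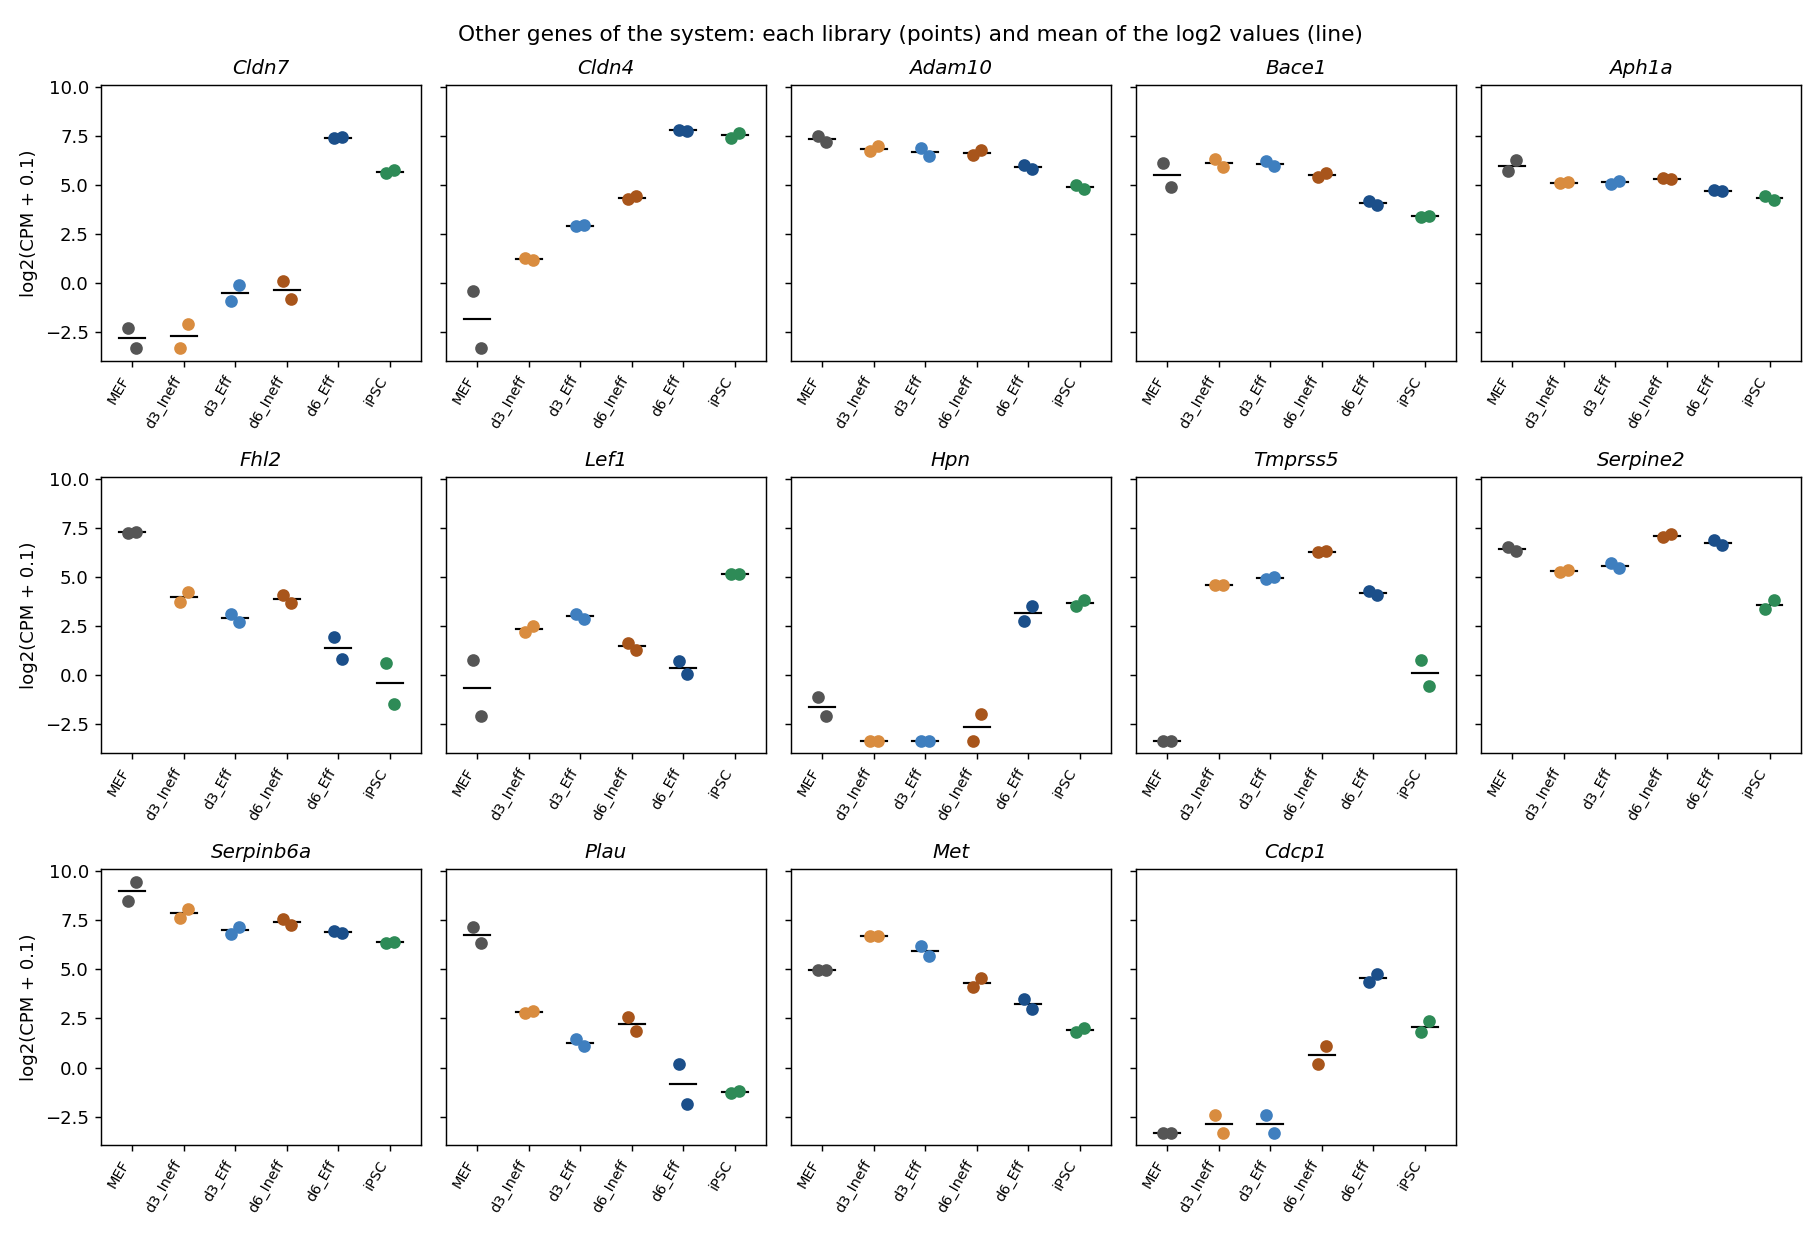
Each point is 1 library and each line the mean of a group's 2 log2 values, on a scale of log2(CPM + 0.1), for 14 other genes of the system in the 6 groups. Cldn7, Cldn4, Hpn and Cdcp1 are higher in d6_Eff than in d6_Ineff, Tmprss5 is highest in d6_Ineff, and Plau is highest in MEF.

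The genes whose levels followed each member most closely were found by the root-mean-square difference in log2 CPM over the 12 libraries, each gene centred on its own mean, among 11423 genes. These 12 libraries hold 6 groups, so likeness mostly follows the group means and is a description. For Epcam the nearest were Cldn4 (0.705), the transporter gene Slc35f2 (1.25) and Grhl2 (1.25), which encodes an epithelial transcription factor. Grhl2 stood at 2.14 and 2.47 CPM in d6_Ineff, 53.0 and 61.9 CPM in d6_Eff and 18.0 and 20.4 CPM in iPSC. For St14 they were Ckmt1 (0.713), Bex4 (0.750) and Hap1 (0.772), and for Spint1 Large2 (0.498), Ildr1 (0.526) and Lsr (0.603), the latter 2 being genes of tricellular junction proteins. For Spint2 they were Mdk (0.259), which encodes the growth factor midkine, Kif26a (0.519) and Hunk (0.542). For Prss8 they were Crb3 (1.49), an apical polarity gene, Fam25c (1.51) and Grhl2 (1.56). Among the members themselves, St14 and Spint1 were the closest pair, at 1.09, with 16 genes nearer to St14 than Spint1 was. Spint2, with the smallest range, lay 2.79 from Epcam.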

How the data were processed

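For each sample the authors deposited read counts per Ensembl gene, as whole numbers. Per the submitters' processing notes, STAR 2.3.0, Picard 1.100 and HTSeq 0.6.0 were used with build mm9. Which annotation served for counting is not given here. The file names mark the counting as unstranded, although the kit in the labels' protocols is a directional one. The summary lines stayed out of library sizes and tests, and reads outside genes made up 5.10% to 47.2% of reads in genes, ambiguous or outside genes.

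Symbols, exon lengths and overlaps came from GENCODE M21, on a later build, and 32860 of 37583 identifiers had a symbol. Genes were kept by filterByExpr and scaled by TMM. All 12 libraries entered 1 edgeR 4.0.16 quasi-likelihood fit (R 4.3.3) with 6 group means and robust dispersions, with 6 residual degrees of freedom. Calls were made at an adjusted p under 0.05 (Benjamini-Hochberg, over all 16240 genes). SE was taken from the size of the log2 fold change over the root of F. Where a group had no counts, folds are bounds against 3 counts over that group. Floors and intervals cover counting error only. On simulated counts for d6_Eff against d6_Ineff (14795 genes, 200 of them changed), the fit called 12 of 100 genes changed 2-fold and 84 of 100 changed 4-fold, with 5 false calls. These rates hold for that setting alone: in the data 872 genes were called higher and 1502 lower in d6_Eff.

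The alternatives were RLE and upper-quartile scaling, DESeq2 1.42.0, limma-voom (limma 3.58.1), no filter, only the groups compared, a replicate block, leaving out each library, and, added after the data were seen, leaving out both libraries with most reads outside genes. Genes other than the 5 were named by rule: from each role, up to 2 with the smallest adjusted p in d6_Eff against d6_Ineff and in iPSC against MEF with a group mean of at least 5 CPM, with Cldn7 in any case, and the 3 genes nearest each member. Cldn3, Cdh1, Tek, Cdh5, Cldn5, Esam, Esrrb, Krt10, Krtdap, Krt14, Lor, Trp63 and markers at 0 are named as members of their lists. The 5 genes and the lists were chosen with earlier results of these data known. Of the list of other genes, 2 are not reported here and were left out of its counts after the data were seen. Flg, on the list of substrates, was not matched. St14 and Prss8 had no promoter window in the table. Promoter windows are credited to RefSeq, and no other coordinates are printed because the builds differ.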

Additional observations from a re-analysis of the deposited data

Results flagged for a closer look

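The effect of the sorting contrast differed between the 2 days for 2 of the 5 genes, by a test of the difference itself in the edgeR fit. For Prss8 the log2 difference between d6_Eff and d6_Ineff exceeded that between d3_Eff and d3_Ineff by 5.95, on day 3 libraries with 0 to 9 counts. It did so by 4.87 to 10.3 when 1 library was left out, and the Prss8 call held in 3 of these 12 fits. The value of 10.3 was fitted with 0 counts left in d3_Eff and is no measure of size. For Epcam it was larger by 3.98. The day 6 populations were sorted on EpCAM protein and the day 3 populations on CD73, with SSEA1 and Sca1 used on both days.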

How the results depend on the processing

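Over the 12 comparisons refitted for the members and the 3 refitted for the other 14 genes named by role, no called fold change changed direction under any alternative. The comparisons of d6_Ineff and iPSC with d3_Eff were not refitted. Against the main counts of members called, a fit of only the groups compared gave 2 in d3_Ineff against MEF and 5 in iPSC against d6_Ineff. Between the day 3 populations DESeq2, only the groups compared and leaving out both libraries with most reads outside genes each gave 2, no filter gave 1, and leaving out 1 library gave 0 to 2. Leaving out 1 library gave 3 to 5 members between the day 6 populations and 1 to 3 for the difference between days. For the 37 other genes of the system, only the groups compared gave 12 called in d3_Ineff against MEF, against 20, 15 in d3_Eff against MEF, against 23, and 18 in iPSC against d6_Eff, against 11, where leaving out both libraries with most reads outside genes gave 17. Between the day 3 populations, against 0, upper-quartile scaling gave 1, DESeq2 4, no filter 6, only the groups compared 6, and leaving out both libraries 6. For the difference between days, against 1, DESeq2 gave 3, no filter 4, only the groups compared 5, and leaving out both libraries 3. Leaving out 1 library gave 0 to 6 between the day 3 populations, 7 to 22 between the day 6 populations, 3 to 10 in d6_Ineff against d3_Ineff, 8 to 18 in iPSC against d6_Eff and 0 to 7 for the difference between days. The shares of all genes called under these alternatives are not given here. A move of the listed genes can therefore not be told apart from a general change in the number of calls. The cause of these moves was not tested. Of all genes, upper-quartile scaling moved the median log2 fold change by at most 0.11, in iPSC against d6_Ineff.

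Replicate numbers did not pair the libraries: deviations of same-numbered libraries correlated between -0.1 and 0.148 over 15 pairs of groups, above 0.1 in 2. With the replicate block, 5 members were called between the day 6 populations, 0 between the day 3 populations and 2 for the difference between days, as without it, and the system list gave 14, 0 and 1. Depth limits Prss8, whose day 3 and MEF libraries held 9 counts or fewer.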
